A study of Mus musculus with 6 samples.

Results

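The genes described here are 10 genes that pattern or mark the midbrain-hindbrain boundary: En1, En2, Cnpy1, Pax2, Pax5, Pax8, Fgf8, Gbx2, Wnt1 and Lmx1b. They were taken by symbol from the 39179 genes of the count table, and each was matched to 1 Ensembl gene. The set was chosen by the measured fall of En2 and Cnpy1 between the groups in earlier results of these data, so the members' group difference is given as a description and not as a test. RNA came from mouse neural progenitor cells of strain CD1, isolated from E13.5 cerebral cortex and differentiated in culture. Of the 6 libraries, 3 were of cells stably expressing green fluorescent protein (GFP) and 3 of cells stably expressing the G392E variant of neuroserpin (G392E-NS), a neuronal protease inhibitor whose variant forms polymers and causes the dementia FENIB. Cells with wild-type neuroserpin were not analysed here. Nothing in the labels says whether replicates came from separate cultures or which promoter drove the transgenes, so the spread between libraries may be technical.

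The midbrain-hindbrain boundary, or isthmus, is a signalling centre of the neural tube. It forms where Otx2, expressed in front, meets Gbx2, expressed behind. Wnt1 is expressed on its front side and the secreted factor Fgf8 on its rear side. The transcription factors En1, En2, Pax2, Pax5, Pax8 and Lmx1b keep each other and these signals active in the surrounding tissue. Cnpy1 encodes a canopy protein of the endoplasmic reticulum that promotes FGF signalling at this boundary in fish embryos. The cerebral cortex, from which these cells were taken, lies outside this territory.

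Expression of the set was carried by En2, Cnpy1 and Gbx2, which held 98.8% of the members' counts. Total counts per library were 15507487 to 24835835, and a single count was worth 0.0416 to 0.0652 CPM (counts per 1000000 counts of the library, scaled by TMM factors). En1 and Fgf8 had a few counts in every library. Pax5 and Lmx1b had 2 counts each over the 6 libraries, Pax2 and Pax8 1 each, and Wnt1 none. Of the 10 members, 3 passed the filter on low counts, and these 3 did so in all 6 libraries. The 3 were called lower in G392E-NS by edgeR's quasi-likelihood test across all genes, against 1.36% of all genes tested called lower and 6.15% called in either direction. Their groups did not overlap, which held with GFP higher for 12.9% of all genes tested and in either direction for 28.6%. Nothing is read from these counts, since the members were chosen with this contrast known.

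**Figure D1:**
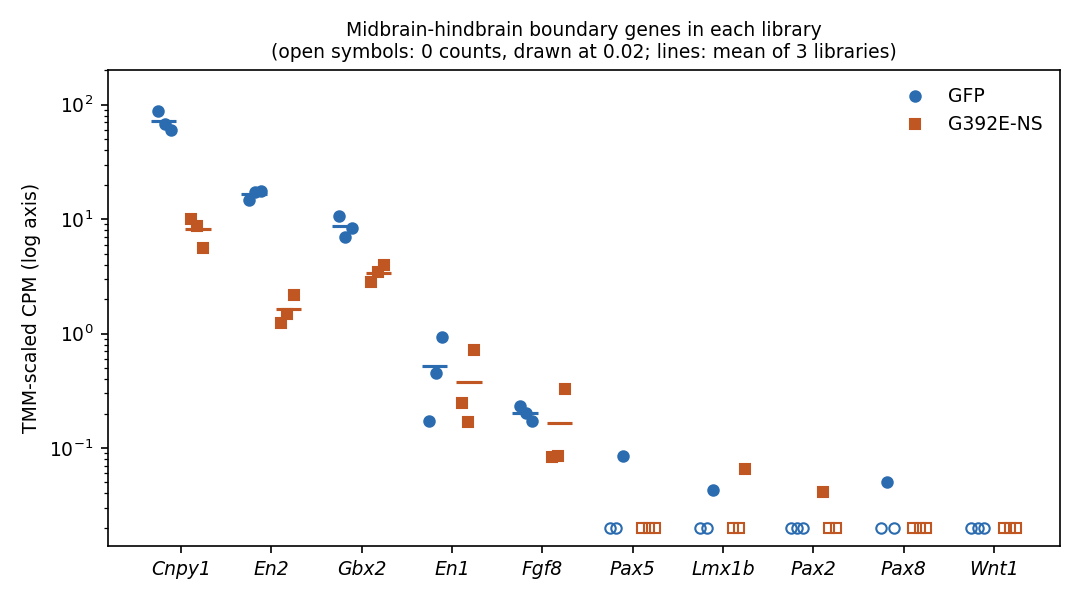
CPM of each of the 10 genes in each library on a log axis, with GFP libraries as circles, G392E-NS libraries as squares and lines at the mean of 3 libraries; open symbols are libraries with 0 counts, drawn at 0.02. Cnpy1, En2 and Gbx2 lie higher in all GFP libraries than in any G392E-NS library, the groups overlap for En1 and Fgf8, and Wnt1 has no count.

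En2 encodes a homeodomain transcription factor of the engrailed family that specifies midbrain and cerebellar tissue (ENSMUSG00000039095, GRCm38 chromosome 5, 28165694 to 28172166, forward strand). It had 253, 345 and 415 counts in GFP replicates 1 to 3, which is 14.6, 17.3 and 17.7 CPM. In G392E-NS replicates 1 to 3 it had 30, 35 and 33 counts, or 1.25, 1.48 and 2.15 CPM. The lowest GFP library thus lay far above the highest G392E-NS library. The GFP mean was 16.5 ± 1.72 CPM and the G392E-NS mean 1.63 ± 0.469 CPM (± SD, n = 3 each), a log2 fold change of −3.37 (SE 0.22), or 10.4-fold lower. Among the 13775 genes tested, En2 had rank 8 counted from the lowest log2 fold change. In GFP cells the coefficient of variation (SD over mean) of En2 was 10.4%, beside a median of 8.31% over 3382 tested genes within 2-fold of its level. In bulk RNA such as this, fewer cells expressing a gene and less of its RNA per cell cannot be told apart.

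Cnpy1 (ENSMUSG00000044681, chromosome 5, 28200819 to 28245806, reverse strand) was the member with the most counts. GFP replicates 1 to 3 had 1528, 1361 and 1392 counts, or 88.0, 68.3 and 59.5 CPM. G392E-NS replicates 1 to 3 had 241, 207 and 86 counts, or 10.02, 8.78 and 5.61 CPM. The groups again lay well apart. Relative to the mean, the GFP libraries were more widely spaced than for En2 (coefficient of variation 20.3% against 10.4%). The G392E-NS libraries were spaced about as for En2 (28.0% against 28.8%). The means were 71.9 ± 14.6 and 8.14 ± 2.28 CPM, a log2 fold change of −3.13 (SE 0.23), or 8.73-fold lower, at rank 14. Its coefficient of variation in GFP libraries, 20.3%, was above that of 95.4% of the 4241 tested genes within 2-fold of its level, whose median was 5.68%.

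Gbx2 encodes the homeodomain factor that sets the hindbrain side of the boundary (ENSMUSG00000034486, chromosome 1, 89927956 to 89931179, reverse strand). GFP replicates 1 to 3 had 186, 140 and 197 counts, or 10.7, 7.03 and 8.43 CPM. G392E-NS replicates 1 to 3 had 68, 81 and 61 counts, or 2.83, 3.44 and 3.98 CPM. Here too the groups did not overlap, but the gap between the nearest libraries was narrower than for En2 and Cnpy1. The means were 8.72 ± 1.86 and 3.41 ± 0.576 CPM, a log2 fold change of −1.36 (SE 0.22), or 2.56-fold lower, at rank 88. Without GFP replicate 1, the GFP library with the highest Gbx2 CPM, the log2 fold change was −1.19 and Gbx2 was no longer called. En2 and Cnpy1 were called in each of the 14 alternative settings, with log2 fold changes of −3.60 to −3.23 and −3.32 to −2.93. The set was chosen by the fall of these genes in the same libraries, so these calls add no independent support.

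The annotated exons of Gbx2 share 946 bases with D130058E05Rik, a non-coding transcript on the opposite strand that had 0 counts in all 6 libraries. Whether counting used strand is not given in the sources used here, so reads of this stretch cannot be assigned to 1 strand. For En2, Cnpy1, En1, Fgf8, Pax2 and Wnt1, no stretch of 50 bases in their GENCODE transcripts occurred in a transcript of another gene. En1 and En2 are close relatives, yet their transcripts shared no such stretch.

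The promoters of Cnpy1 and Gbx2 are shown because these members were lower in the same libraries; they lie on different chromosomes. Of the 10 members, 8 were in the RefSeq promoter table (GRCm38.p6), and En2 and Fgf8 were not. The windows begin 250 bases and end 26 bases before a RefSeq start. Each is shown as its longest stretch free of annotated exons of its own gene, written 5′ to 3′ on the strand of the gene. Capitals mark TAATT, a core of many homeodomain binding sites, or AATTA, the same site on the other strand.
Cnpy1, distal start, chr5:28245814-28246038, reverse strand: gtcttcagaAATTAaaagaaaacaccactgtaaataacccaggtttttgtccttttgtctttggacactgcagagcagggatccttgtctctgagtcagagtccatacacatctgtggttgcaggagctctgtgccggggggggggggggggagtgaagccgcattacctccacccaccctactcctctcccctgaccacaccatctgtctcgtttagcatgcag
Cnpy1, proximal start, chr5:28210194-28210341, reverse strand: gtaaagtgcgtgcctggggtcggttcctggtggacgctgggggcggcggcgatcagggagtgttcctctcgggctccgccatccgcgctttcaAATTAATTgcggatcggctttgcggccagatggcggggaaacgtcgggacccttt
Gbx2, chr1:89931202-89931426, reverse strand: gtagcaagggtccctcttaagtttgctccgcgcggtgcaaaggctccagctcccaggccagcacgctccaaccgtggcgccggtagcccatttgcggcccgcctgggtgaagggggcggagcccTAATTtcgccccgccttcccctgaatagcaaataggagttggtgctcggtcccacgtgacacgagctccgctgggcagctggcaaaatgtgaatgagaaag

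Each of these windows held the site TAATT on either strand, as did 23.8% of all 32851 promoter windows of the same length. The proximal Cnpy1 window held it on both strands in overlapping letters. The whole distal Cnpy1 window had 3 CG pairs and the whole proximal window 25, against a median of 5 over all windows, and the Gbx2 window had 16. The letters CCGGAAG (an ETS factor core, found in 5.21% of windows), TTCAAAG (a TCF core, 4.14%) and TATAAA (10.6%), searched on both strands, were not in these windows. The letters GGGCGG (an Sp factor core, in 29.2% of windows) were in the proximal Cnpy1 and the Gbx2 window. The Gbx2 window lies within an exon of D130058E05Rik on the other strand. The counts are per gene, so which Cnpy1 start was used cannot be told from them.

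Levels of different genes were compared per length, as CPM per kilobase of merged exons (RPKM). In GFP libraries Cnpy1 was highest at 12.3 ± 2.49 RPKM, above 68.4% of all genes tested. En2 followed at 4.68 ± 0.487 and Gbx2 at 4.01 ± 0.855 RPKM, and these neighbours in the order did not differ beyond their spread. In G392E-NS libraries the order of means was Gbx2 at 1.57 ± 0.264, Cnpy1 at 1.39 ± 0.388 and En2 at 0.460 ± 0.133 RPKM. Gbx2 and Cnpy1 overlapped there, while En2 lay below both in every library and above 10.8% of genes tested.

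Ratios within a library do not depend on scaling. En2 had 0.166, 0.253 and 0.298 counts per Cnpy1 count in GFP replicates 1 to 3. In G392E-NS replicates 1 to 3 it had 0.125, 0.169 and 0.384. The groups overlapped, with means of 0.239 ± 0.0674 and 0.226 ± 0.139, with the widest spread in G392E-NS. G392E-NS replicate 3 had the highest En2 and the lowest Cnpy1 CPM of its group. Gbx2 had 0.735, 0.406 and 0.475 counts per En2 count in GFP replicates 1 to 3, and 2.27, 2.31 and 1.85 in G392E-NS replicates 1 to 3. These ratios of counts did not overlap between the groups, and they are not per length.

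**Figure D2:**
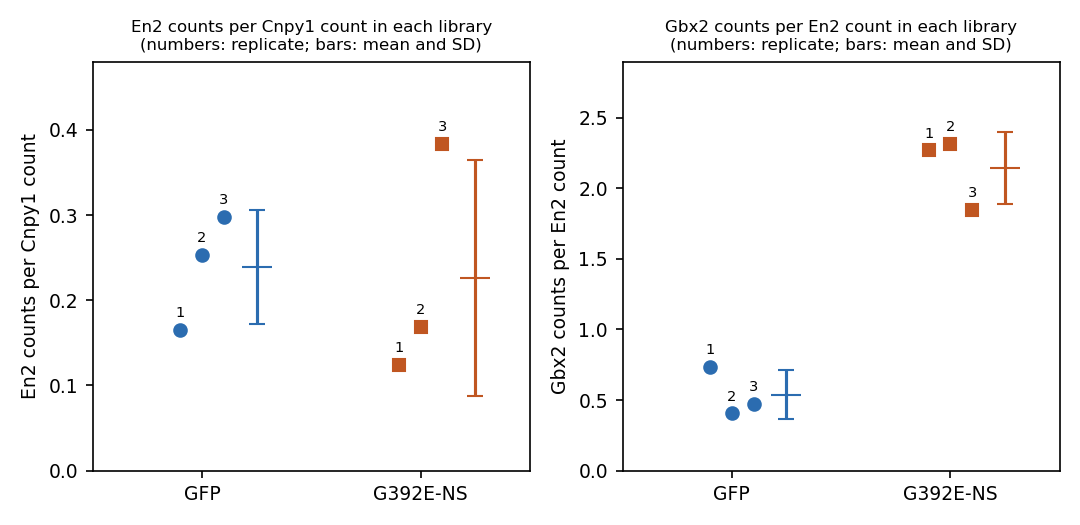
Counts of En2 per count of Cnpy1 (left) and of Gbx2 per count of En2 (right) in each library, numbered by replicate, with the mean and SD of 3 libraries. The left ratio overlaps between the groups, while the right ratio spans 0.406 to 0.735 for GFP libraries and 1.85 to 2.31 for the others.

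En1, the engrailed gene that acts earliest at the boundary, was near the limit of detection (ENSMUSG00000058665, chromosome 1, 120602418 to 120607992). It had 3, 9 and 22 counts in GFP replicates 1 to 3 and 6, 4 and 11 in G392E-NS replicates 1 to 3. The groups overlapped, and the libraries of 1 group differed among themselves by more than the group means did. The pooled depth-scaled ratio of G392E-NS over GFP was 0.595 (95% exact binomial interval 0.328 to 1.06, counting error only). En1 reached the filter's level of 0.471 CPM in 2 of 6 libraries, where 3 were needed, and so was not tested.

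Fgf8, the secreted organiser signal (ENSMUSG00000025219, chromosome 19, 45736798 to 45742915), had 4 counts in each GFP library. G392E-NS replicates 1 to 3 had 2, 2 and 5 counts. The ratio of G392E-NS over GFP was 0.723 (95% exact interval 0.269 to 1.87, counting error only). The interval includes equal levels, and a fall or rise within it was not detectable at this depth. No G392E-NS or GFP library reached the filter's level for Fgf8.

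The paired-box genes and Lmx1b were at or below the floor of 3 counts per group, 0.0494 CPM over the GFP and 0.0477 CPM over the G392E-NS libraries, and no fold is given. Pax2 (ENSMUSG00000004231), the earliest Pax gene of the isthmus, had 1 count, in G392E-NS replicate 1. Pax5 (ENSMUSG00000014030), its later-acting relative, had 2 counts, in GFP replicate 3. Pax8 (ENSMUSG00000026976) had 1 count, in GFP replicate 2. Lmx1b (ENSMUSG00000038765), a LIM-homeodomain gene needed to maintain Wnt1 and Fgf8, had 1 count in GFP replicate 3 and 1 in G392E-NS replicate 3. Wnt1 (ENSMUSG00000022997), the Wnt ligand of the midbrain side, had 0 counts in all libraries. The En2, Cnpy1 and Gbx2 transcripts were thus measured in cultures where the organiser signals and the Pax genes were at trace level or undetected.

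En2 and Cnpy1 are neighbours on chromosome 5. The 3′ end of En2 lies 28.7 kb from the 3′ end of Cnpy1, the genes point toward each other, no annotated gene lies between them, and their start sites are 80.1 kb apart. The table holds 11 further genes that reach within 1 Mb of En2, of which 6 were tested. Insig1, a regulator of sterol synthesis whose start lies at −94.3 kb from that of En2, had means of 176 ± 40.9 and 220 ± 18.0 CPM in GFP and G392E-NS libraries (log2 fold change 0.32, edgeR adjusted p = 0.303). Rbm33, beyond Cnpy1, had 126 ± 11.6 and 109 ± 13.8 CPM (−0.21, adjusted p = 0.349). For these genes on either side of the pair the groups overlapped. Shh, the sonic hedgehog ligand gene, had 1.75 ± 0.161 and 1.73 ± 0.236 CPM (−0.03, adjusted p = 0.954), Paxip1 changed by −0.22 (adjusted p = 0.234), and Gm26894, which overlaps Shh on the other strand, by 0.89 (adjusted p = 0.119). The groups overlapped for Shh but not for Paxip1, higher in GFP libraries, or Gm26894, higher in G392E-NS libraries.

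The 1 called gene of this window was Dpp6, a potassium channel auxiliary subunit whose start lies at −1348 kb from that of En2. It rose from 73.1 ± 17.8 to 142 ± 21.7 CPM (log2 fold change 0.96, SE 0.18, edgeR adjusted p = 0.0227), the direction opposite to En2. Its call was lost without GFP replicate 1 or GFP replicate 2 (adjusted p = 0.0939 and 0.0961).

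**Figure D3:**
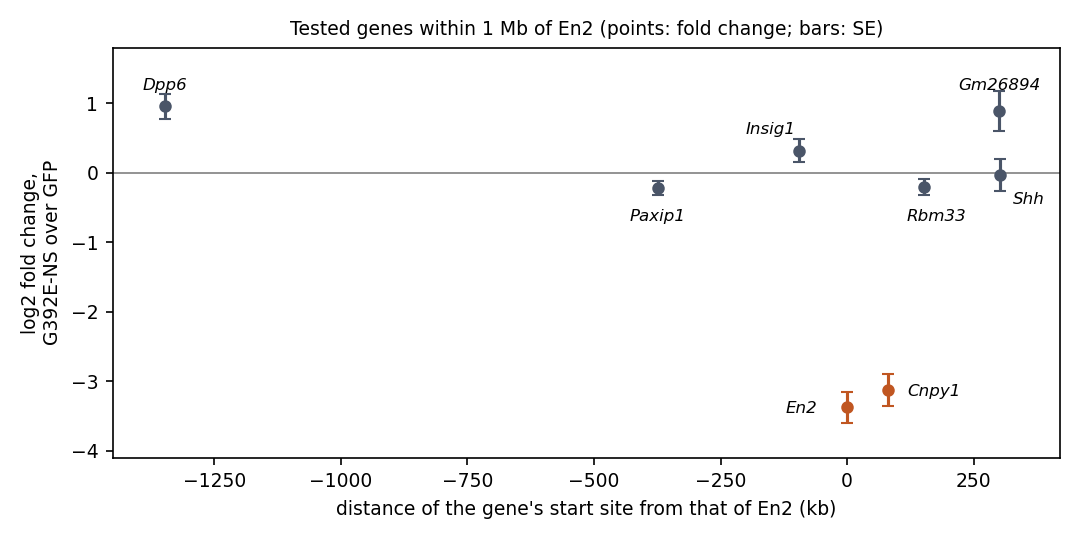
Log2 fold change (G392E-NS over GFP, bars are SE) of the tested genes reaching within 1 Mb of En2, against the distance of their start sites from that of En2 in kb. En2 and Cnpy1 lie at −3.37 and −3.13, and the other 6 genes between −0.22 and 0.96.

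Other genes of the boundary were examined from a list of 10, of which 4 were tested and none was called (edgeR quasi-likelihood test, smallest adjusted p = 0.0658; 2 at an unadjusted p under 0.05, 1 called by DESeq2 and 0 by limma-voom). Their median log2 fold change was −0.23, against −0.005 over all genes tested. Otx2, the midbrain counterpart of Gbx2, had 0 counts in all libraries. Fgf17, an FGF ligand expressed around the isthmus, had 1.86 ± 0.117 CPM in GFP and 1.01 ± 0.243 in G392E-NS (log2 fold change −0.88, adjusted p = 0.0945). Sp8, a zinc finger factor that helps maintain Fgf8, had 0.261 ± 0.206 and 1.28 ± 0.591 CPM (2.36, adjusted p = 0.0658). The groups did not overlap for either gene, in opposite directions.

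Of 5 FGF receptor genes, 4 were tested, and Fgfr4, with 9 counts over the 6 libraries, was not. Of the 4, 1 was called, against 4.79% of all genes tested called higher. This list and that of FGF targets were chosen with earlier results of these data known. Fgfr3 rose from 130 ± 23.5 to 385 ± 46.8 CPM (log2 fold change 1.56, SE 0.15, edgeR adjusted p = 0.00139), and Fgfr1 had 211 ± 36.6 and 222 ± 15.6 CPM (0.08, adjusted p = 0.789). Of 11 FGF target and feedback genes tested, 1 fell and none rose, against 1.36% of all genes tested called lower and 4.79% higher, with a list median of −0.28. It was Il17rd, encoding the feedback inhibitor Sef, which fell from 95.3 ± 9.45 to 52.1 ± 12.1 CPM (−0.88, adjusted p = 0.0238) and lost its call without GFP replicate 1 or GFP replicate 2 (adjusted p = 0.103 and 0.0862). The ETS factor gene Etv1, with the highest GFP mean on this list, had 388 ± 49.6 and 265 ± 50.8 CPM (−0.55, adjusted p = 0.0889). Dusp6 had 80.7, 84.1 and 19.9 CPM in GFP replicates 1 to 3 and 72.1, 22.5 and 68.8 in G392E-NS replicates 1 to 3. Etv4 and Etv5 were likewise lowest in GFP replicate 3 and G392E-NS replicate 2 of their groups. The SE of the log2 fold change was 0.56 for Dusp6, 0.62 for Etv4 and 0.52 for Etv5. The absence of a call for these genes therefore does not show an equal level.

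Canonical Wnt target genes, 9 tested, held no call (edgeR quasi-likelihood test, smallest adjusted p = 0.0956 for Lgr5; 2 at an unadjusted p under 0.05, 1 called by DESeq2 and 0 by limma-voom; median −0.22). Axin2, the feedback inhibitor of the pathway, had 58.3 ± 18.4 CPM in GFP and 36.4 ± 10.8 in G392E-NS (−0.68, adjusted p = 0.202). Of 10 cofactors of engrailed and Pax proteins, none was called by edgeR or limma-voom, 1 was at an unadjusted p under 0.05 and 1 was called by DESeq2. The Groucho corepressor gene Tle2 had 8.76 ± 3.40 and 3.12 ± 1.34 CPM (−1.51, adjusted p = 0.0669). The other canopy genes, Cnpy2, Cnpy3 and Cnpy4, had log2 fold changes of −0.09, 0.37 and −0.20. None was called by edgeR (smallest adjusted p = 0.141), DESeq2 or limma-voom, and 1 was at an unadjusted p under 0.05.

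The regional identity of the cultures was described with lists of brain transcription factors. Forebrain factors were present: in GFP libraries Lhx2 had 34.2 ± 1.17, Emx2 32.7 ± 6.23 and Pax6 55.7 ± 4.30 CPM. Emx1, a marker of the dorsal cortex, was close to absent, with 6 counts in all, and Hesx1 had none. Of 15 hindbrain factors in the table, 8 had no count in any library, and of 14 midbrain factors 3 were tested. None of these 3 midbrain factors was called by edgeR (smallest adjusted p = 0.127 for Pou4f1), DESeq2 or limma-voom, and 1 was at an unadjusted p under 0.05. Hence En2, Cnpy1 and Gbx2 were measured beside an expressed set of forebrain genes.

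Of 14 forebrain factors tested, 5 rose and none fell in G392E-NS libraries, against 4.79% of all genes tested that were higher. Their median log2 fold change was 0.34. The list was chosen with earlier results of these data known, so nothing is read from this count. Dmrta2, a regulator of the cortical hem and medial cortex, rose from 5.05 ± 1.26 to 17.7 ± 5.02 CPM (1.79, SE 0.26, edgeR adjusted p = 0.00738). Otx1, the forebrain and midbrain relative of Otx2, rose from 9.27 ± 0.701 to 21.8 ± 3.85 CPM (1.24, SE 0.16, adjusted p = 0.00503). Log2 fold changes of Nr2f1 and Lhx2 were 0.67 and 0.56, at edgeR adjusted p of 0.0130 and 0.0218. Dmrta2 and Otx1 were called in each of the 14 alternative settings. The count of higher forebrain factors was 2 when GFP replicate 1 or GFP replicate 2 was left out and 3 when GFP replicate 3 was. Without GFP replicate 1, Nr2f1 and Lhx2 had adjusted p of 0.0758 and 0.0916. Leaving out GFP replicate 2 gave 0.0699 and 0.108, and without GFP replicate 3 Lhx2 had 0.0685. Nr2f1 and Fgfr3 share exon bases with other annotated genes.

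Of 12 cerebellar factors, 5 were tested. Of these, Zic1, Zic4 and Neurod1 fell and none rose, against 1.36% of all genes tested called lower. This list too was chosen with earlier results of these data known, so nothing is read from its count. Zic1, a zinc finger factor of the dorsal neural tube and cerebellum, fell from 92.6 ± 6.97 to 29.1 ± 1.85 CPM (log2 fold change −1.67, SE 0.10, edgeR adjusted p = 0.000153), and its divergent neighbour Zic4 from 6.14 ± 0.700 to 1.17 ± 0.317 CPM (−2.36, adjusted p = 0.00184). Zic2 had 16.9 ± 0.190 and 18.1 ± 2.47 CPM (0.10, adjusted p = 0.688), and Meis1 a log2 fold change of −0.20 (adjusted p = 0.261). Neurod1, a neuronal differentiation factor that cerebellar granule cells express, fell by 2.63 on the log2 scale (adjusted p = 0.00398). Its exons overlap Cerkl, and 60 exon bases are shared between Zic1 and Zic4 on opposite strands. Atoh1, which defines granule cell precursors, Ptf1a and Skor2 had no count.

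**Figure D4:**
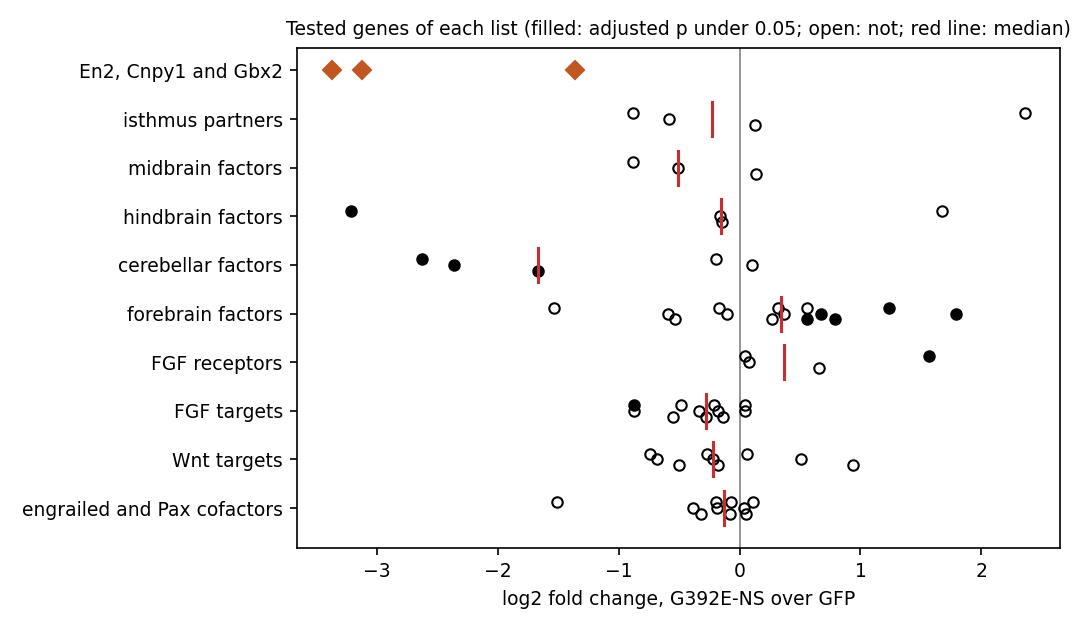
Log2 fold change (G392E-NS over GFP) of each tested gene of the lists, with filled points for genes at an adjusted p under 0.05, a red line at each list's median, and the 3 tested boundary genes as diamonds at the top. Of 14 forebrain factors 5 are called higher, and of 5 cerebellar factors 3 are called lower. The lists were chosen with earlier results of these data known.

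Cell type markers differed between the groups in the same libraries, and their part in the member differences was not tested. Of all genes tested, 4.79% were called higher and 1.36% lower. The marker lists were chosen with earlier results of these data known. Of 8 astrocyte markers, 3 rose (Slc1a2, Aldoc and Aldh1l1; list median 1.22), and the summed level of the 8 was 3263 to 4678 CPM in the GFP group against 7445 to 12450 CPM in the other. Slc1a2, a glutamate transporter gene, rose from 966 ± 190 to 2414 ± 628 CPM (edgeR adjusted p = 0.0144). The count of 3 became 1, 0 and 1 when GFP replicates 1, 2 and 3 were left out in turn, and Aldh1l1 also lost its call when G392E-NS replicate 3 was (adjusted p = 0.0594). Of 8 neuron markers tested, 1 fell, Elavl4 (log2 fold change −0.70, edgeR adjusted p = 0.0228, list median 0.11), with a summed level of 3429 to 3958 and 3160 to 4382 CPM. Most of this sum was Map2 (means 2750 and 2631 CPM). Syt1 and Snap25 were higher in all G392E-NS libraries than in any GFP library but were not called (edgeR adjusted p = 0.064 and 0.177). Elavl4 lost its call without any 1 library other than G392E-NS replicate 1 (adjusted p of 0.0510 to 0.0929). Of 8 oligodendrocyte lineage markers, Pdgfra and Mog rose (summed level 3220 to 3901 and 2762 to 5051 CPM). Most of this sum was Olig1 (means 2031 and 2203 CPM) and Olig2 (1042 and 1103 CPM), neither of them called. Pdgfra lost its call without any GFP library or G392E-NS replicate 2 (adjusted p of 0.0512 to 0.172), and so did Mog (0.0795 to 0.117).

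Several markers of neurons that depend on boundary genes in the brain were at trace level or absent. Dopamine neuron markers summed to 8.13 to 8.58 CPM under GFP and 7.57 to 8.44 under G392E-NS, with Th, their defining enzyme, at 0 counts. Most of this sum was Nr4a2 (means 4.33 and 4.73 CPM) and Slc18a2 (2.62 and 2.19 CPM), while Slc6a3 had 0.184 and 0.148 CPM. Serotonin neuron markers summed to 2.57 to 3.71 and 2.21 to 2.91 CPM, with Fev at 0 and Tph2 at 1 count in all. Slc18a2 is on both lists and made up most of the serotonin sum, so the sums do not measure these neurons. Neither list held a gene called by edgeR (smallest adjusted p = 0.368 and 0.592), DESeq2 or limma-voom, or at an unadjusted p under 0.05. Markers of microglia summed to at most 0.351 CPM, with Csf1r at 0. Endothelial markers summed to 2.35 to 3.51 and 2.35 to 2.84 CPM, with Cdh5 and Cldn5 at 0; of 2 tested, 0 were called by edgeR, DESeq2 or limma-voom, or at an unadjusted p under 0.05. Of the meningeal and mesenchymal markers, summed at 6.89 to 9.50 and 9.46 to 13.47 CPM with Dcn and Lum at 0, Twist1 was called higher (adjusted p = 0.00601); it had no counts in GFP libraries and a mean of 2.19 ± 0.956 CPM in the others.

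The groups also differed in sex-linked transcripts. Xist, which silences an X chromosome in female cells, had 1.51 ± 0.0831 CPM in GFP libraries against 1494 ± 345 CPM in the others (log2 fold change 9.95, edgeR adjusted p = 2.47e-06). The sex composition of the cultures and the transgene therefore cannot be told apart as sources of any difference above. Serpini1, the mouse neuroserpin gene, had 4.69 ± 0.483 and 5.72 ± 0.924 CPM (0.29, edgeR adjusted p = 0.419). The species of the introduced neuroserpin is not given. Whether these counts include its reads is therefore unknown, and they do not check the construct.

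The tested genes whose log2 CPM followed that of En2 most closely over the 6 libraries were Isl2, Apex2, Ltbr, Srpk3 and Kdm5d, with Pearson r of 0.9994, 0.9947, 0.9945, 0.9934 and 0.9932. Isl2, a LIM-homeodomain factor of motor neurons, was 10.5-fold lower in G392E-NS libraries, from 3.58 ± 0.477 to 0.348 ± 0.104 CPM. Kdm5d is a Y-linked gene and was 1.96-fold lower. The points share their 2 groups of 3 libraries, and no test is given. The r with En2 was 0.947 for Cnpy1 and 0.952 for Gbx2, and 145 and 123 of the tested genes outside the set had a higher one.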

How the data were processed

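The deposited table holds raw counts per Ensembl gene for 6 libraries, whole numbers not normalised by the authors, per the file headers and the values. The submitters' processing notes name build GRCm38, DESeq2 (1.4.5), HTSeq (0.6.1), TopHat2 (2.0.12) and R (3.2.2), without their roles. The sources used here do not give the annotation release, strand setting or treatment of multi-mapped reads. GENCODE M21 (GRCm38) paired 37693 of 39179 genes with a symbol and position.

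Genes were tested with edgeR 4.0.16 in R 4.3.3: filterByExpr left 13775 genes with 99.9% of counts. With TMM scaling, the groups were compared by the quasi-likelihood test, with no covariate. Benjamini-Hochberg adjustment ran over every tested gene (threshold 0.05). SE is the log2 fold change divided by the square root of F. Correlations used log2 CPM with a prior count of 2. The fit was tested on simulated counts. The members and the 18 gene lists were chosen with earlier results of these data known. Lists are described by counts and medians, without a set test. Named genes were the members, the genes near En2, up to 4 called genes of each list with its nearest and most abundant members, and the 5 genes most like En2; not every gene so picked is described, and some results are not reported here. Of the list genes, Hoxd4 was not analysed here, and Tle5 is Aes in the annotation. Alternatives were 3 other scalings (RLE, upper quartile, totals only), limma-voom (limma 3.58.1), DESeq2 1.42.0, other low-count filters, the replicate number as a block, and leaving out each library. Nothing in the labels ties equal replicate numbers to a shared origin. P-values weigh the group difference against the spread between these libraries, which may be technical.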

Additional observations from a re-analysis of the deposited data

How the results depend on the processing

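En2, Cnpy1 and Gbx2 stayed lower in all 14 alternatives. Gbx2 lost its call when GFP replicate 1 was left out and with the replicate block, so that 2 members were called. Over all genes tested, 4.79% (660) were higher and 1.36% (187) lower. DESeq2 gave 7.87% (1084) and 2.66% (366), and no low-count filter 1205 and 374 genes of more tested. Leaving out 1 library gave 1.38% to 7.04% and 0.324% to 2.81%, lowest without GFP replicate 1 and highest without G392E-NS replicate 1. With the replicate block 1.57% (217) were higher and 0.363% (50) lower, forebrain factors higher numbered 3 and astrocyte markers 0. Deviations of same-numbered libraries from their group means correlated at 0.03, −0.38 and −0.25, and not every library correlated best with its own number. Deviations within a group depend on each other, so these values cannot show whether equal numbers mark paired libraries. The highest correlations were 0.35, of GFP replicate 2 with G392E-NS replicate 3, and 0.31, of GFP replicate 3 with G392E-NS replicate 2. Whether these libraries share a factor under other numbers was not tested. Forebrain factors higher ranged from 2 to 5 with a library left out, and cerebellar factors lower were 3 in every alternative. Both lists were chosen with earlier results of these data known, so these counts add no independent support. Astrocyte markers higher were 5 by DESeq2, 7 with no low-count filter and 0 to 4 with a library left out. Shh had log2 fold changes of −0.12 to 0.0757 with a library left out, positive where GFP replicate 3 (0.04) or G392E-NS replicate 2 (0.08) was. Over 24 other genes, 280 values under an alternative kept their call state and direction and 51 lost the call. The difference in log2 En2-to-Cnpy1 ratio was −0.21, and −0.68 to 0.13 with a library left out. The cause of these shifts was not tested. Depth limits En1 and Fgf8 to the intervals given, and the 5 members with 2 counts or fewer to the floor.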
